A study of Mus musculus with 16 samples.

Results

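The 10 genes Thbs1, Thbs2, Thbs3, Tnc, Fn1, Fbln2, Vcan, Sparc, Spp1 and Tgfbi encode thrombospondins, further matricellular proteins and large matrix glycoproteins. They were found by gene symbol in both deposited count tables, 10 of the 55738 features that the untreated table lists and 10 of 56980 features that the IFNγ table lists. They were chosen by genotype and IFNγ differences measured in these same libraries, so those differences, and the counts of genes past a threshold, are given below as a description and are no independent evidence of a direction. All 10 passed the filter on low counts in both experiments.

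The RNA came from KPC1199, a mouse pancreatic ductal adenocarcinoma (PDAC) cell line from a tumor with engineered alleles that include Pdx-cre and mutant Trp53, which both genotypes share. sgCtrL cells (labelled WT) received Cas9 with a control guide and Sin3Bsg1 cells (labelled Sin3B Knockout) received Cas9 with 1 guide against Sin3B, a scaffold of histone deacetylase complexes. Both are transduced, selected cell populations of 1 line, and a second guide was not analysed here. The untreated experiment holds 2 sgCtrL and 2 Sin3Bsg1 libraries, and the IFNγ experiment holds 3 libraries for each genotype with IFNγ (10 ng/ml for 24 h) and 3 without it, 16 libraries in all. The labels give no age or sex of the source mouse, and they do not say whether libraries of a group came from separate cultures. The standard errors and p-values below therefore rest only on the spread between libraries, which may be technical. That spread was estimated over all groups of an experiment together, with information shared across genes, so it is not that of the compared libraries alone.

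Matricellular proteins are secreted into the extracellular matrix, where they act less as structural fibres than as modulators of how cells bind matrix, growth factors and proteases. Thrombospondin 1 binds CD36, CD47 and integrins, and it can activate latent TGF-β. Fibronectin, versican and fibulin 2 are parts of the matrix scaffold itself. In pancreatic cancer much of the matrix is made by stromal fibroblasts, and tumor cells contribute some of these proteins. The libraries here hold RNA of cultured tumor cells, in which fewer cells that express a gene and less RNA per cell cannot be told apart.

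The genotype rests on a single cut site, so the guide is shown with the genomic bases next to it. The 20 bases of the guide are in lower case and the adjacent PAM, the motif that Cas9 needs, is in capitals.
Sin3Bsg1: tggctcccgctggggtcgttCGG
The guide matched GRCm39 at chr8:73449982-73450001 on the plus strand, within an exon and the coding sequence of Sin3b. Sin3b was at 88.6 and 83.4 CPM (counts scaled to library size with TMM factors) in the untreated sgCtrL libraries and at 36.5 and 34.1 CPM in the Sin3Bsg1 libraries. Its untreated log2 fold change was -1.28 ± 0.049 (SE, n = 2 per group), with an adjusted p of 1.19e-11 by edgeR. In the IFNγ experiment it was -1.24 ± 0.052 without IFNγ (edgeR adjusted p = 5.10e-10, n = 3 per group) and -1.22 ± 0.052 with IFNγ (edgeR adjusted p = 5.22e-10). Sin3b RNA was therefore lower in every Sin3Bsg1 library and was not absent from any.

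Promoter sequence from RefSeq (GRCm38.p6, 300 bases around a transcription start) matched 8 of the 10 genes in 10 windows. Thbs1 and Fn1 had no entry. Windows of 3 genes are shown, Thbs2 and Tgfbi because their RNA differed most between groups, and Spp1 because it was the most abundant. Capitals mark the letters CAGACA or their reverse complement TGTCTG, a SMAD-type motif.
Thbs2 promoter, chr17:14694213-14694512, minus strand: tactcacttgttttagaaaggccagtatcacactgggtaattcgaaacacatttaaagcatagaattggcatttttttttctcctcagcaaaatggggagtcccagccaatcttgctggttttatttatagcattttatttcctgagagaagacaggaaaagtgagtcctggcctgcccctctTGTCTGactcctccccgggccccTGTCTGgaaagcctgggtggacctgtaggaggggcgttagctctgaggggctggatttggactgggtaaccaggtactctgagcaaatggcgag
Tgfbi promoter, chr13:56609336-56609635, plus strand: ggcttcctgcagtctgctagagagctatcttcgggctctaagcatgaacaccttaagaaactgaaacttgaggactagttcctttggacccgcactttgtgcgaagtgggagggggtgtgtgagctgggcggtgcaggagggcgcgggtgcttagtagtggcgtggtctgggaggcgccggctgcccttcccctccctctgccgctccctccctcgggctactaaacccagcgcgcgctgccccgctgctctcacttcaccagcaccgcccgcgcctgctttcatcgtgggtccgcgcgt
Spp1 promoter, chr5:104434861-104435160, plus strand: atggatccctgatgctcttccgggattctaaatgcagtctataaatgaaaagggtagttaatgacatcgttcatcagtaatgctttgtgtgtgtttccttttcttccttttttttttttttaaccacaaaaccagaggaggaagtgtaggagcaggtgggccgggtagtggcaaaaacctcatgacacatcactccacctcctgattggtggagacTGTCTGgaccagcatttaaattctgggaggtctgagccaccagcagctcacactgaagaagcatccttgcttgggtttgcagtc
CAGACA was the motif found, in 5 of the 10 windows and in 4 of the 8 genes (Tnc, Spp1, Sparc and Thbs2), and 21.0% of 32851 mouse promoter windows of the same length hold it. In Thbs2 it ended 62 and 39 bases before the start site, and in Spp1 29 bases before it. The windows of Tnc overlap and share a match, so the same site is counted in each. The letters TGANTCA (AP-1), GGAATG (TEAD) and TTCNNNGAA (GAS, the gamma-activated site) were in 0 of the 10 windows on either strand, against 7.81%, 14.7% and 8.30% of all windows. These matches describe the letters in a short window and are not binding sites.

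The libraries summed to between 29683181 and 32311721 estimated counts for untreated cells and between 18128055 and 27056903 in the IFNγ experiment, and the variation between replicates in edgeR was 2.84% and 6.78%. In sgCtrL with IFNγ, replicate 1 differed from its companions more than any other library did, with chi-square values averaging 22.4 and 18.6 a gene where the remaining replicate pairs gave 2.40 to 9.35. The epithelial markers Epcam, Krt7, Krt8, Krt18, Krt19 and Cdh1 were each above 1 TPM in every group and their sum, too, differed with genotype. Untreated, it was 5433 to 5451 TPM (counts per gene length, scaled to the library) in sgCtrL and 7188 to 7293 TPM in Sin3Bsg1. In the IFNγ experiment it was 3789 to 3868 TPM and 4096 to 4193 TPM without IFNγ, and 3837 to 4556 TPM and 5090 to 5274 TPM with it. Of 6 macrophage markers Cd68 alone reached 1 TPM, Adgre1 was listed at 0 and Ptprc was at most 0.053 TPM. Of 4 endothelial markers none reached 1 TPM in any group. Of 10 fibroblast markers, Postn was listed at 0 and Col1a2, Dcn, Lum, Fap and Thy1 stayed below 1 TPM, while Acta2 reached 6.22 TPM and Pdpn 1.48 TPM in the highest library of the IFNγ experiment. The fibroblast sum was made mostly of the receptors Pdgfra and Pdgfrb, and it moved with genotype. Untreated, it was 32.2 to 32.7 TPM in sgCtrL and 10.6 to 11.5 TPM in Sin3Bsg1. In the IFNγ experiment it was 86.2 to 89.7 TPM in sgCtrL and 76.7 to 80.5 TPM in Sin3Bsg1 without IFNγ, and 63.7 to 65.2 TPM and 55.4 to 61.5 TPM with IFNγ. The part of the epithelial and fibroblast sums in the differences below was not tested.

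Compared per length, Spp1 stood far above the other genes. Spp1 encodes osteopontin, a secreted phosphoprotein that binds integrins and CD44. Its mean level was 4024 ± 36.5 TPM (SD, n = 2) in untreated sgCtrL and 4957 ± 98.2 TPM (SD, n = 3) in sgCtrL without IFNγ, which placed it between rank 10 and rank 19 of all features in the libraries without IFNγ. Fn1 (fibronectin) followed in untreated sgCtrL with 839 ± 5.41 TPM and Sparc with 493 ± 2.12 TPM. Fbln2, Thbs3, Thbs1 and Vcan came next, with means of 99.2, 88.4, 79.6 and 72.4 TPM. Tnc was at 34.9 ± 1.60 TPM, Tgfbi at 18.04 ± 0.25 TPM and Thbs2 at 1.28 ± 0.092 TPM. In no group other than Sin3Bsg1 with IFNγ did the libraries of neighbours in this order overlap. There Vcan (47.6 ± 5.47 TPM, SD, n = 3) overlapped Fbln2 (39.0 ± 3.38 TPM). The order itself differed between groups. With IFNγ in sgCtrL, Sparc (381 ± 1.30 TPM) stood above Fn1 (341 ± 36.4 TPM), and Thbs1 (125 ± 2.03 TPM) above Thbs3 (72.3 ± 4.10 TPM). The tables of the experiments were normalised separately, so levels across them are set side by side without a test.

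**Figure D1:**
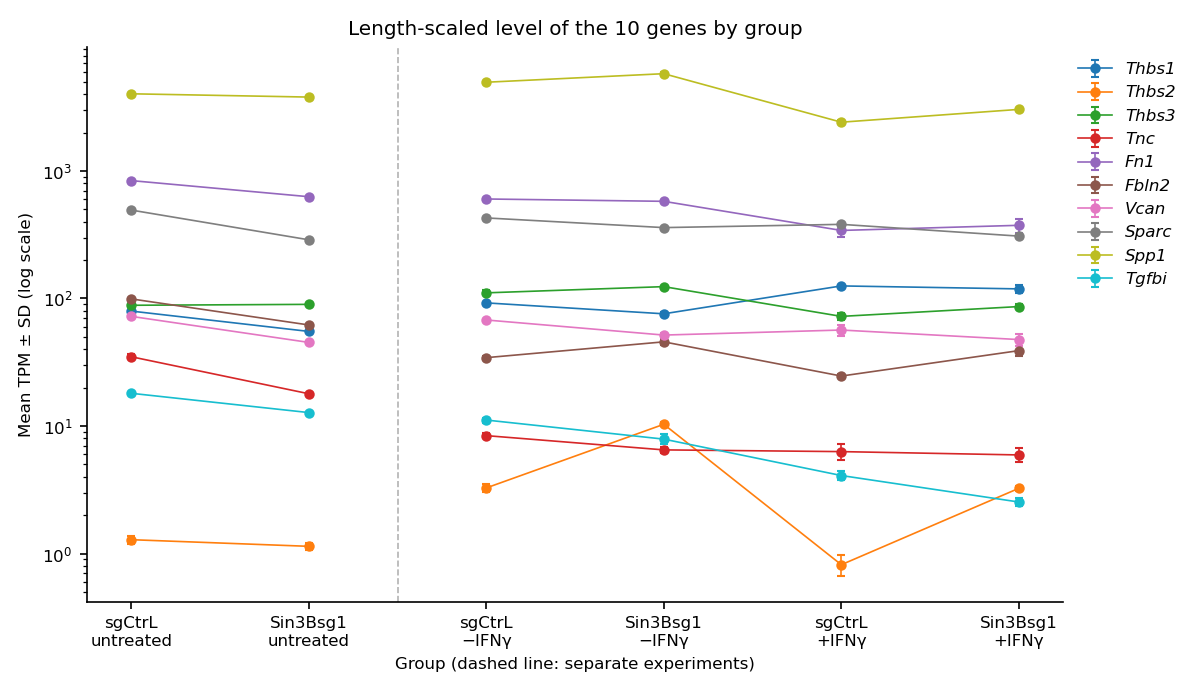
Mean TPM ± SD (log axis) of each gene in the 6 groups; the dashed line parts the untreated experiment (n = 2 per group) from the IFNγ experiment (n = 3 per group). Spp1 is highest in every group, and Thbs2 spans the widest range, from 0.82 TPM in sgCtrL with IFNγ to 10.3 TPM in Sin3Bsg1 without it.

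The untreated comparison asks which transcripts differ when Sin3B is targeted and no cytokine is added. 9 of the genes had a lower mean level in Sin3Bsg1, and 8 of 10 were past an adjusted p of 0.05 in the lower direction (all but Thbs2 and Thbs3). None was past it in the higher direction. The background of that call was 16.0% of 14589 genes lower and 15.1% higher. The libraries of the genotypes did not overlap for any of the 10 genes, as for 63.3% of all genes tested in this design of 2 against 2. The median log2 fold change of the 10 genes was -0.51, beside 0.0024 over all genes. Since this contrast helped to choose the genes, nothing is read from those counts.

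Without IFNγ in the second experiment the same comparison gave mixed directions. 3 genes (Thbs2, Spp1 and Fbln2) were past the threshold in the higher direction, where 7.89% of 14913 genes were, and 5 (Thbs1, Tnc, Sparc, Tgfbi and Vcan) in the lower direction, where 9.33% were. The genotypes did not overlap for any of the 10 genes and for 39.2% of all genes. With IFNγ, 4 genes (Thbs2, Thbs3, Spp1 and Fbln2) were past the threshold in the higher direction (8.62% of all genes) and 3 (Sparc, Tgfbi and Vcan) in the lower direction (7.90%). The genotypes did not overlap for 7 genes, and for 30.4% of all genes. The median log2 fold change of the 10 genes was -0.18 without IFNγ and 0.022 with it, beside -0.0090 and 0.0036 over all genes. These contrasts also chose the genes.

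IFNγ is the cytokine of activated T and NK cells that induces antigen presentation and chemokine genes. In sgCtrL cells, 1 gene (Thbs1) was past the threshold as higher with IFNγ (15.7% of all genes) and 7 (all but Thbs1, Sparc and Vcan) as lower (14.5%), with no overlap for any of the 10 genes (41.5% of all genes). In Sin3Bsg1 cells the same 1 gene was higher (16.1%) and 6 were lower (12.3%), Thbs2, Thbs3, Fn1, Sparc, Spp1 and Tgfbi, with no overlap for 7 genes (45.4%). The median was -0.47 in sgCtrL and -0.28 in Sin3Bsg1, beside -0.00062 and 0.0052 over all genes. Both IFNγ contrasts were among those that chose the genes. The interaction of genotype and IFNγ was past the threshold for 0 of the 10 genes in edgeR and in DESeq2. Over all genes it was past it for 17 (0.114%) in edgeR. An unadjusted p under 0.05 in edgeR was met by 4 of the 10 genes and by 810 of all 14913 genes. The sgCtrL libraries without IFNγ enter the genotype and the IFNγ contrasts alike, so these are not independent of each other.

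**Figure D2:**
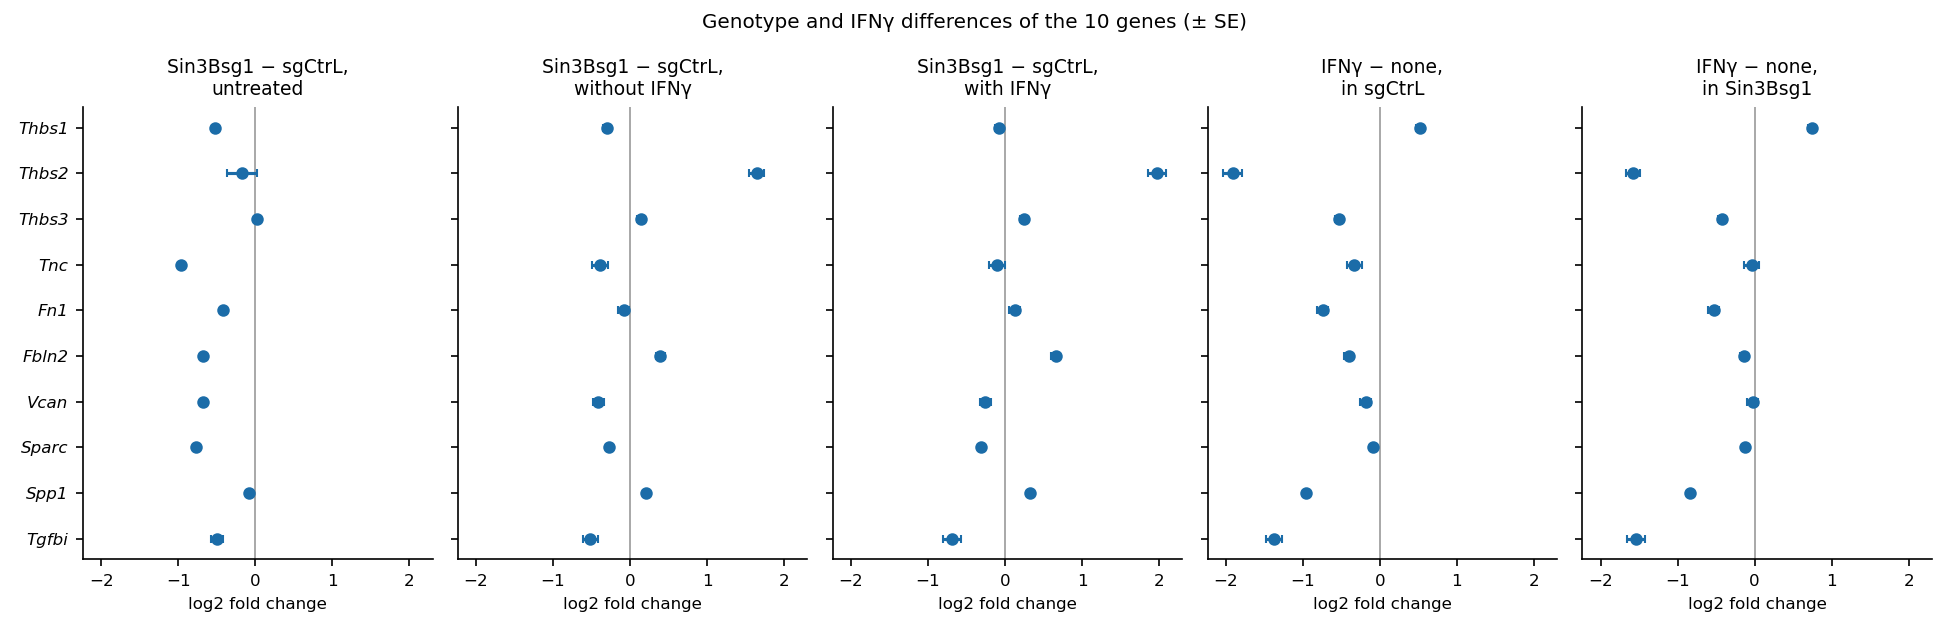
Log2 fold change ± SE of each gene in 5 contrasts (columns), from edgeR. Most genes lie below 0 in the untreated genotype contrast and in both IFNγ contrasts, while Thbs2 lies near -0.17 in the untreated genotype contrast and at 1.64 and 1.98 in the genotype contrasts without and with IFNγ, and at -1.91 and -1.57 in the IFNγ contrasts of sgCtrL and Sin3Bsg1.

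The thrombospondins did not move alike. Thbs1 (ENSMUSG00000040152, GRCm39 chr2:117941974-117957616, plus strand) encodes a trimeric inhibitor of angiogenesis. It was at 226 and 227 CPM in untreated sgCtrL and at 157 and 157 CPM in untreated Sin3Bsg1. In the second experiment it was at 241, 248 and 250.8 CPM in sgCtrL and at 193, 205 and 200 CPM in Sin3Bsg1 without IFNγ. The IFNγ-treated libraries were at 357, 353 and 350 CPM in sgCtrL and at 348, 331 and 322 CPM in Sin3Bsg1. Thbs1 was thus lower in Sin3Bsg1 in each setting, by 1.44-fold (log2 fold change -0.53 ± 0.026), 1.23-fold (-0.30 ± 0.044) and 1.06-fold (-0.08 ± 0.043, not past the threshold). It was the 1 gene of the 10 whose mean was higher with IFNγ, by 1.43-fold in sgCtrL (0.52 ± 0.044) and 1.67-fold in Sin3Bsg1 (0.74 ± 0.044).

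Thbs2 (ENSMUSG00000023885, GRCm39 chr17:14885761-14914528, minus strand), the paralog of Thbs1 with a like domain order, was the least abundant of the 10 genes in untreated cells. Its libraries held 104 and 114 reads in untreated sgCtrL and 101 and 105 in Sin3Bsg1, or 3.49 and 3.88 CPM against 3.14 and 3.40 CPM. In the IFNγ experiment it was at 9.22, 8.22 and 8.93 CPM in sgCtrL without IFNγ and at 27.3, 26.5 and 28.3 CPM in Sin3Bsg1 without IFNγ. IFNγ-treated sgCtrL libraries were at 1.84, 2.42 and 2.70 CPM, from 37 to 64 reads per library, and treated Sin3Bsg1 libraries at 8.94, 8.88 and 9.79 CPM. Every Sin3Bsg1 library of this experiment lay above every sgCtrL library of the same treatment, and every library with IFNγ lay below those of its genotype without it. Sin3Bsg1 with IFNγ and sgCtrL without it overlapped. The genotype fold was 3.12 without IFNγ (1.64 ± 0.093) and 3.93 with it (1.98 ± 0.12), against a log2 fold change of -0.17 ± 0.19 in the untreated experiment. With IFNγ it was 3.75-fold lower in sgCtrL (-1.91 ± 0.12) and 2.97-fold lower in Sin3Bsg1 (-1.57 ± 0.091). Thbs2 had the fewest reads and the widest SE of the 10 genes in the untreated experiment.

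Thbs3 (ENSMUSG00000028047, GRCm39 chr3:89122461-89134144, plus strand) encodes a pentameric thrombospondin. In the untreated experiment it was at 136 and 139 CPM in sgCtrL and 140 and 140 CPM in Sin3Bsg1 (0.025 ± 0.030). It was at 168, 157 and 158 CPM in sgCtrL and 178, 182 and 174 CPM in Sin3Bsg1 without IFNγ (0.14 ± 0.050, not past the threshold), and at 103, 117 and 114 CPM and 133, 130 and 134 CPM with IFNγ (0.25 ± 0.050). The genotypes did not overlap in any setting, but the largest of these differences was 1.19-fold. With IFNγ Thbs3 was lower by 1.45-fold in sgCtrL (-0.53 ± 0.050) and by 1.34-fold in Sin3Bsg1 (-0.43 ± 0.050). In GRCm39 all 11684 bases of Thbs3 lie under an annotated span of Mtx1 on the opposite strand. That overlap is of whole gene spans, introns included, and the strand setting of the counting was not given. How far reads of the pair were shared was not tested. Mtx1 itself was higher with IFNγ in sgCtrL (0.27 ± 0.055, edgeR adjusted p = 0.00157), opposite in sign to Thbs3.

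**Figure D3:**
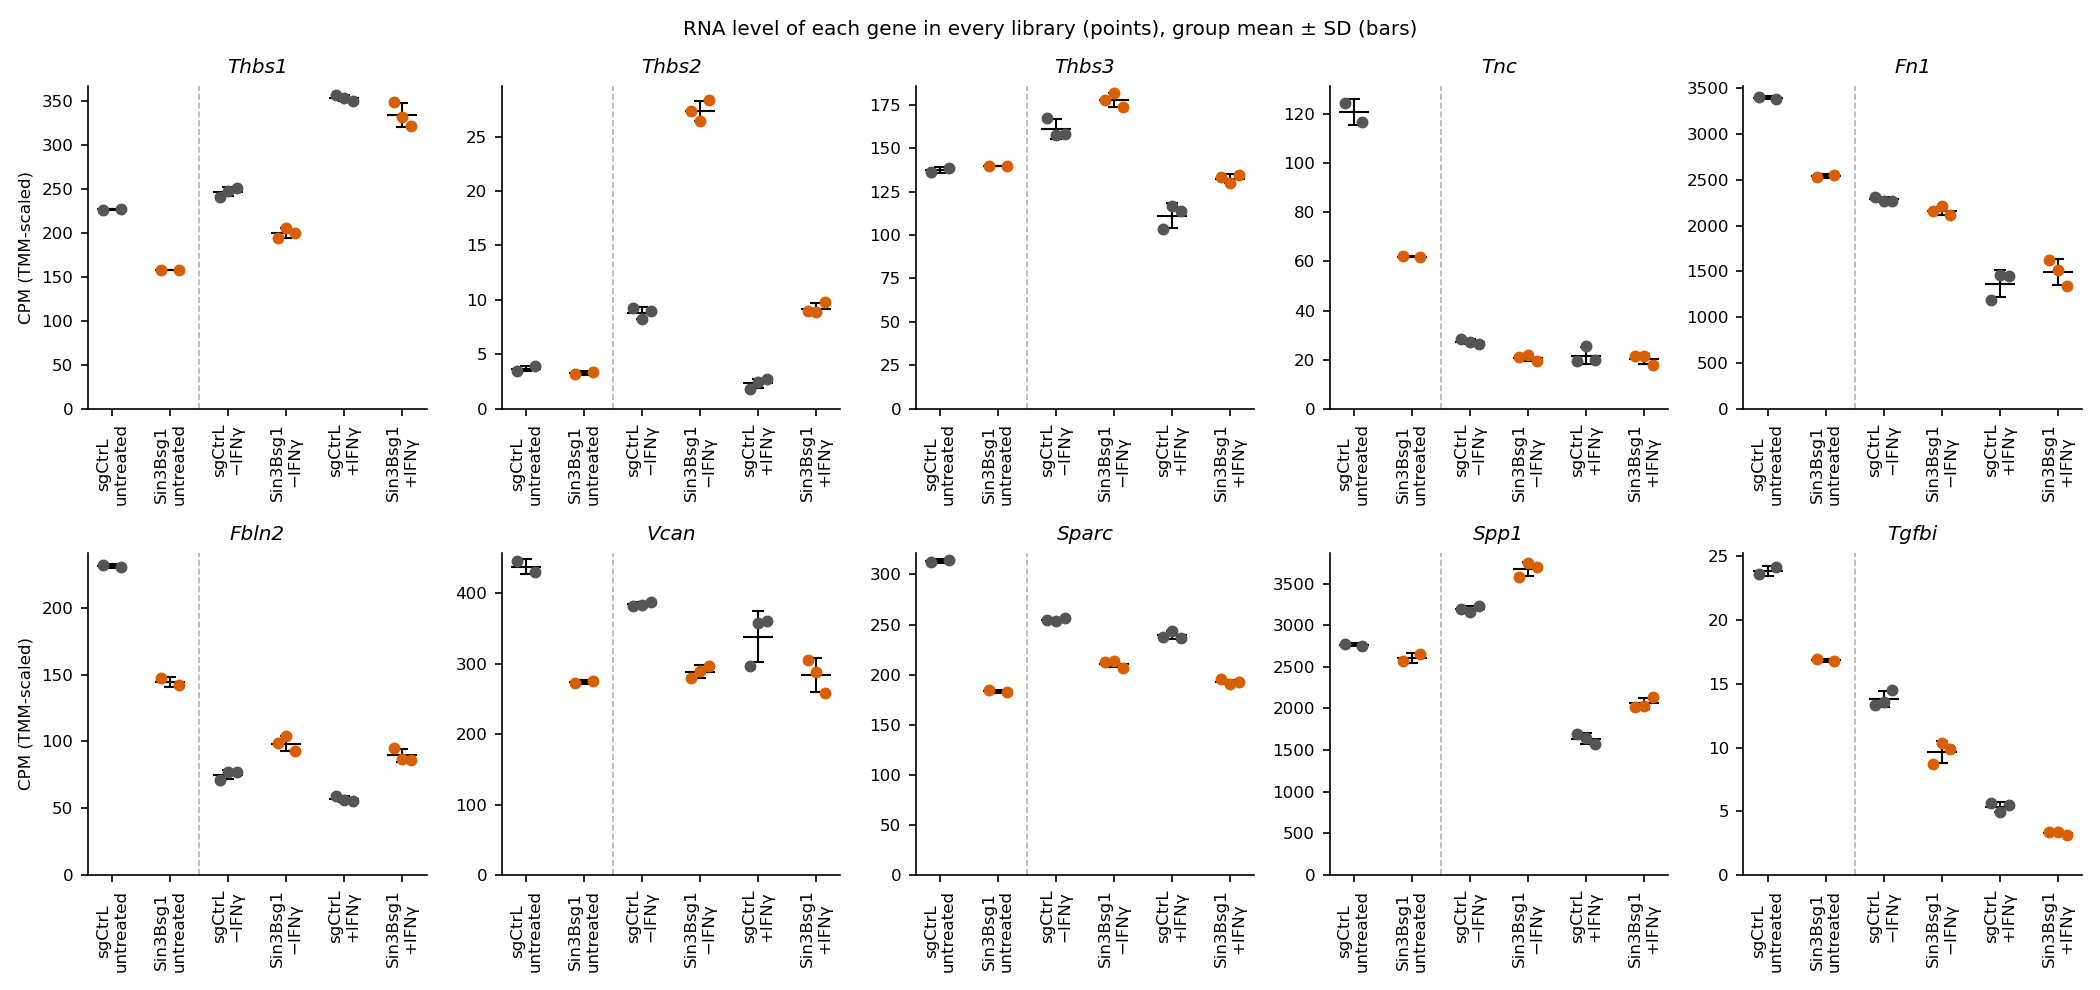
CPM of each gene in every library (points; grey sgCtrL, orange Sin3Bsg1) with group mean ± SD; each panel has its own linear axis from 0, and the dashed line parts the experiments. Thbs2 in Sin3Bsg1 without IFNγ lies between 26.5 and 28.3 CPM, above all other libraries, and Tnc lies at 117 and 125 CPM in untreated sgCtrL, above all others.

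The matrix scaffold genes were lower in untreated Sin3Bsg1. Tnc (ENSMUSG00000028364, GRCm39 chr4:63878014-63965443, minus strand) encodes tenascin C, a hexameric anti-adhesive glycoprotein of wounds and tumors. It was at 125 and 117 CPM in untreated sgCtrL and at 62.1 and 61.9 CPM in Sin3Bsg1, 1.95-fold lower (-0.96 ± 0.040), the largest untreated genotype difference of the 10 genes. In the second experiment its level was lower, at 28.3, 27.1 and 26.4 CPM in sgCtrL and 21.1, 21.97 and 19.3 CPM in Sin3Bsg1 without IFNγ (-0.39 ± 0.10). With IFNγ it was at 19.2, 25.5 and 20.002 CPM in sgCtrL and 21.4, 21.4 and 17.8 CPM in Sin3Bsg1, where the genotypes overlapped (-0.10 ± 0.10). The IFNγ difference was -0.33 ± 0.10 in sgCtrL and -0.04 ± 0.10 in Sin3Bsg1. The genotype difference of Tnc without IFNγ was no longer past the threshold without Sin3Bsg1 replicate 3 (-0.34) or without sgCtrL replicate 1 (-0.36), both of the arm without IFNγ. The IFNγ difference in sgCtrL was no longer past it without replicate 1 (-0.26) or 3 (-0.27) with IFNγ, or without replicate 1 (-0.30) or 2 (-0.33) without IFNγ.

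Fn1 (ENSMUSG00000026193, GRCm39 chr1:71624673-71692419, minus strand), whose product fibronectin is assembled by integrins into fibrils, was at 3411 and 3389 CPM in untreated sgCtrL and at 2529 and 2559 CPM in Sin3Bsg1 (-0.42 ± 0.014). In the second experiment it was at 2319, 2268 and 2273 CPM in sgCtrL and at 2157, 2211 and 2120 CPM in Sin3Bsg1 without IFNγ, which differed by -0.08 ± 0.072. After IFNγ it was at 1193, 1465 and 1446 CPM in sgCtrL and at 1628, 1510 and 1343 CPM in Sin3Bsg1, and the genotypes overlapped (0.13 ± 0.072). Fn1 was lower with IFNγ by 1.67-fold in sgCtrL (-0.74 ± 0.072) and by 1.45-fold in Sin3Bsg1 (-0.53 ± 0.072).

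Fbln2 (ENSMUSG00000064080, GRCm39 chr6:91189437-91249522, plus strand) encodes fibulin 2, which links fibronectin, versican and basement membrane proteins. It was at 232 and 230 CPM in untreated sgCtrL and at 147 and 142 CPM in Sin3Bsg1, 1.60-fold lower (-0.68 ± 0.028). In the second experiment it was at 71.1, 77.1 and 76.8 CPM in sgCtrL and at 98.6, 104 and 92.7 CPM in Sin3Bsg1 without IFNγ, 1.31-fold higher (0.39 ± 0.057). With IFNγ the values were 59.3, 55.9 and 55.2 CPM in sgCtrL and 94.99, 87.3 and 86.4 CPM in Sin3Bsg1, 1.58-fold higher (0.66 ± 0.058). The genotype difference thus had opposite signs in the experiments, with no overlap in any of the 3 settings. The IFNγ difference was -0.40 ± 0.058 in sgCtrL and -0.14 ± 0.056 in Sin3Bsg1, where the treated and untreated libraries overlapped.

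Vcan (ENSMUSG00000021614, GRCm39 chr13:89803431-89890814, minus strand) encodes versican, a hyaluronan-binding proteoglycan. It was at 445 and 431 CPM in untreated sgCtrL and at 272 and 276 CPM in Sin3Bsg1 (-0.68 ± 0.024). Without IFNγ in the second experiment it was at 381, 384 and 388 CPM in sgCtrL and at 279, 290 and 297 CPM in Sin3Bsg1 (-0.41 ± 0.071). Under IFNγ it was at 297, 358 and 361 CPM in sgCtrL and at 305, 288 and 258 CPM in Sin3Bsg1 (-0.25 ± 0.071), and replicate 1 of sgCtrL, the library that stood apart, lay inside the Sin3Bsg1 range. That difference was not past the threshold without Sin3Bsg1 replicate 2 (-0.27) or 3 (-0.19), without sgCtrL replicate 2 (-0.21) or 3 (-0.21), or with only the 6 libraries compared (-0.26). The IFNγ difference was -0.18 ± 0.071 in sgCtrL and -0.03 ± 0.071 in Sin3Bsg1, neither past the threshold.

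Sparc, Spp1 and Tgfbi encode smaller secreted proteins. Sparc (ENSMUSG00000018593, GRCm39 chr11:55285317-55314067, minus strand) encodes osteonectin, which binds collagen and calcium. It was at 312 and 315 CPM in untreated sgCtrL and at 184 and 182 CPM in Sin3Bsg1, 1.71-fold lower (-0.77 ± 0.025). In the second experiment it was at 254, 253 and 257 CPM in sgCtrL and at 213, 214 and 207 CPM in Sin3Bsg1 without IFNγ (-0.27 ± 0.039). With IFNγ it was at 237, 244 and 237 CPM and at 195, 191 and 193 CPM (-0.31 ± 0.039). Sparc was lower in Sin3Bsg1 in all 3 settings without overlap. Its IFNγ difference was small, -0.09 ± 0.039 in sgCtrL and -0.13 ± 0.039 in Sin3Bsg1, and the latter was past the threshold but not without Sin3Bsg1 replicate 1 or 2 of the arm without IFNγ (-0.12 for each), or with no filter on low counts (-0.14).

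Spp1 (ENSMUSG00000029304, GRCm39 chr5:104582165-104589235, plus strand) was at 2780 and 2751 CPM in untreated sgCtrL and at 2565 and 2652 CPM in Sin3Bsg1, 1.06-fold lower (-0.08 ± 0.016). In the second experiment it was at 3195, 3156 and 3228 CPM in sgCtrL and at 3580, 3751 and 3695 CPM in Sin3Bsg1 without IFNγ, 1.15-fold higher (0.20 ± 0.039). With IFNγ the values were 1697, 1648 and 1568 CPM in sgCtrL and 2014, 2025 and 2142 CPM in Sin3Bsg1, 1.26-fold higher (0.33 ± 0.039). Every library with IFNγ lay below every library without it. Spp1 was 1.95-fold lower with IFNγ in sgCtrL (-0.96 ± 0.040) and 1.78-fold lower in Sin3Bsg1 (-0.84 ± 0.039). Gm42793, an annotated locus on the same strand within Spp1, was lower with IFNγ too, by -1.40 ± 0.14 in sgCtrL (edgeR adjusted p = 1.74e-06).

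Tgfbi (ENSMUSG00000035493, GRCm39 chr13:56757336-56787375, plus strand), named for its induction by TGF-β, encodes a fasciclin-domain protein that binds integrins and collagen. It was at 23.6 and 24.1 CPM in untreated sgCtrL and at 16.9 and 16.8 CPM in Sin3Bsg1 (-0.50 ± 0.077). Without IFNγ in the second experiment it was at 13.3, 13.6 and 14.5 CPM in sgCtrL and at 8.72, 10.4 and 9.85 CPM in Sin3Bsg1 (-0.52 ± 0.099). Under IFNγ it was at 5.62, 4.91 and 5.50 CPM in sgCtrL and at 3.38, 3.39 and 3.13 CPM in Sin3Bsg1 (-0.69 ± 0.12). The genotypes did not overlap in any of the 3 settings. With IFNγ Tgfbi was 2.59-fold lower in sgCtrL (-1.37 ± 0.11) and 2.91-fold lower in Sin3Bsg1 (-1.54 ± 0.11), second to Thbs2 in sgCtrL and close to it in Sin3Bsg1.

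These counts were repeated without the library that stood apart, sgCtrL replicate 1 with IFNγ. Without it, 9 of the 10 genes were past the threshold for genotype without IFNγ, 7 for genotype with IFNγ, 7 for IFNγ in sgCtrL and 8 for IFNγ in Sin3Bsg1. All-gene calls also moved when any 1 of the 12 libraries was left out. They ran from 1864 to 3529 and from 1782 to 2945 for genotype without and with IFNγ. For IFNγ they ran from 3545 to 4726 in sgCtrL and from 3347 to 5248 in Sin3Bsg1. The fit without sgCtrL replicate 1 with IFNγ tested 15348 genes, and their share past the threshold in these 4 contrasts is not given here. Nothing is therefore read from the 4 counts of the 10 genes. Thbs3 was gained for genotype without IFNγ (0.15) and Fbln2 for IFNγ in Sin3Bsg1 (-0.14), and Tnc was lost for IFNγ in sgCtrL (-0.26). The genotype difference with IFNγ became -0.33 for Vcan, -0.16 for Tnc and 0.05 for Fn1, and the IFNγ difference in sgCtrL became -0.66 for Fn1, -1.79 for Thbs2 and -0.11 for Vcan.

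The interaction values show how far the genotypes differed in their IFNγ difference. They were positive for 8 of the 10 genes, from 0.11 ± 0.071 for Thbs3 to 0.33 ± 0.155 for Thbs2, and negative for Sparc (-0.04 ± 0.055) and Tgfbi (-0.17 ± 0.155). The median was 0.18 over the 10 genes and 0.014 over all genes. None was past the threshold. The values share the same sgCtrL libraries, and the share of all genes with a positive value was not counted. Without sgCtrL replicate 1 with IFNγ, values were lower for Thbs2 (0.21), Tnc (0.22), Fn1 (0.12), Vcan (0.075) and Thbs3 (0.061). They were higher for Thbs1 (0.23), Fbln2 (0.30) and Spp1 (0.16).

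The genes of most alike pattern were sought for Thbs2 and Tgfbi, the members of the 10 with a log2 fold change of 1 or more in size. Among 10072 genes with at least 5 CPM on average in both tables, likeness was taken as the Euclidean distance over 4 log2 fold changes, which are the genotype difference untreated and without IFNγ and the IFNγ difference in each genotype. Nearest to Thbs2 was Prelp (distance 0.72), and nearest to Tgfbi were Nrep (0.42) and Ptpn5 (0.51). Prelp was at -0.28, 1.03, -1.56 and -1.47 in those contrasts. It was picked by these same values, so its likeness to Thbs2 is a description and no separate result.

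Genes of the same families, their receptors and the TGF-β pathway were taken as 72 genes in 10 lists, of which 50 were tested for untreated cells and 47 in the IFNγ experiment. In untreated cells 10 were higher and 25 lower in Sin3Bsg1 at an adjusted p of 0.05 (edgeR), beside 15.1% and 16.0% of all genes. Without IFNγ 7 were higher and 13 lower (7.89% and 9.33% of all genes), and with IFNγ 9 and 12 (8.62% and 7.90%). With IFNγ 6 rose and 25 fell in sgCtrL (15.7% and 14.5% of all genes), and 5 rose and 21 fell in Sin3Bsg1 (16.1% and 12.3%). The interaction was past the threshold for 0 of the 47 in edgeR and in DESeq2. An unadjusted p under 0.05 in edgeR was met by 7 of the 47, beside 810 of all 14913 genes. The median log2 fold change between genotypes was -0.15 in untreated cells, -0.032 without IFNγ and 0.014 with it, beside 0.0024, -0.0090 and 0.0036 over all genes. For IFNγ it was -0.28 in sgCtrL and -0.16 in Sin3Bsg1, beside -0.00062 and 0.0052.

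**Figure D4:**
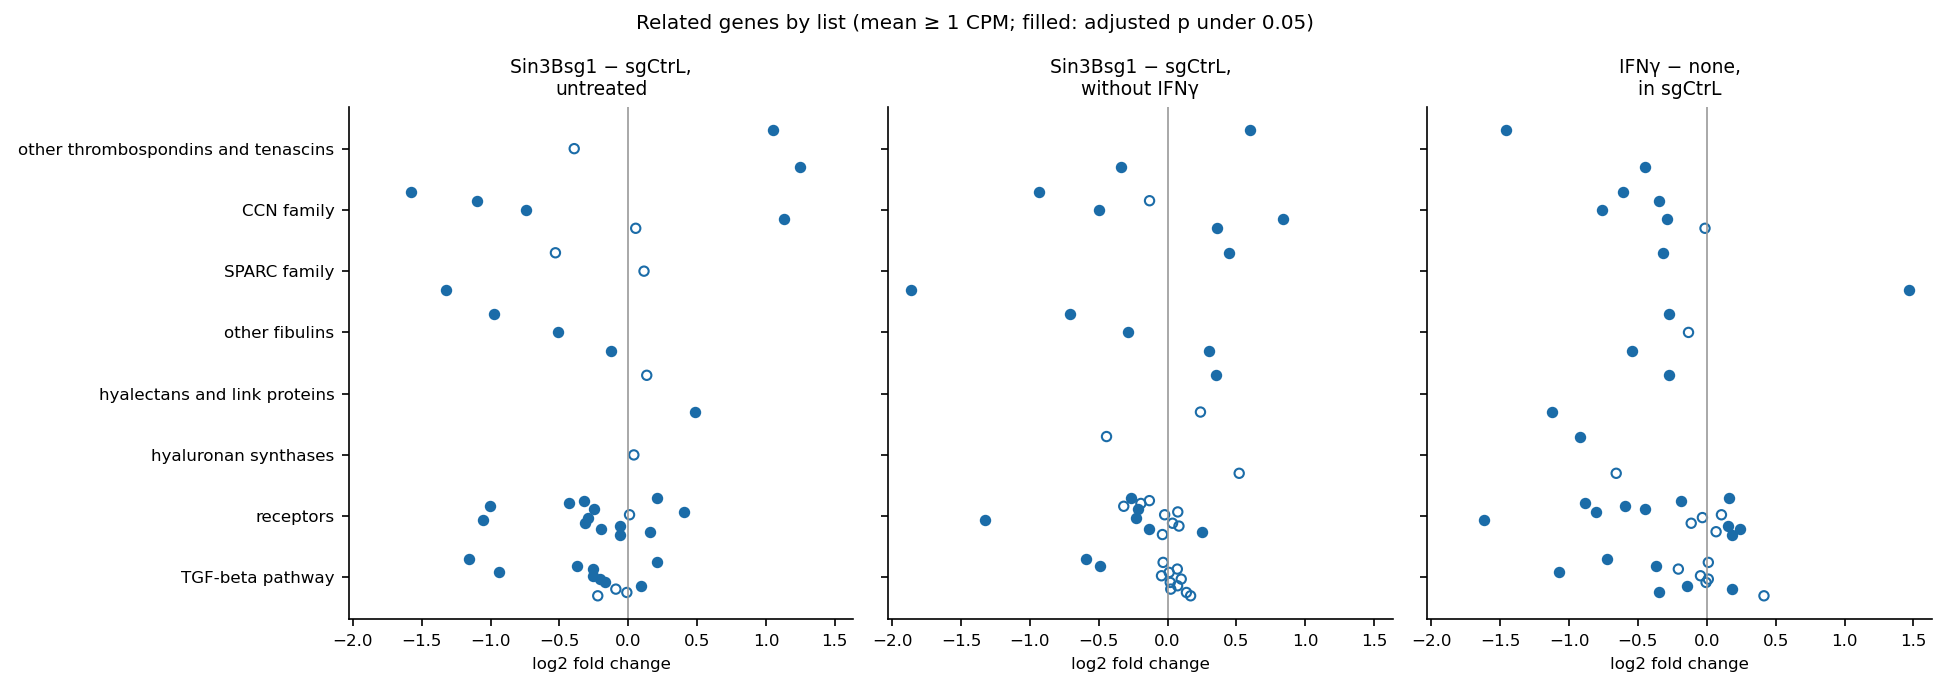
Log2 fold change of genes with a mean of at least 1 CPM in 8 of the lists (points), for the untreated genotype difference, the genotype difference without IFNγ and the IFNγ difference in sgCtrL; filled points are past an adjusted p of 0.05. Fstl1 lies far from its list, at -1.33, -1.86 and 1.47.

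The CCN family holds matricellular growth factor modulators. Of 5 tested, 3 fell and 1 rose in untreated Sin3Bsg1. Ccn5 fell from 38.4 ± 1.39 to 12.9 ± 1.48 CPM (-1.58 ± 0.082, edgeR adjusted p = 4.61e-10), whereas Ccn2 (connective tissue growth factor) rose from 48.6 ± 0.55 to 106 ± 1.41 CPM (1.13 ± 0.039, edgeR adjusted p = 3.24e-12). Ccn2 was higher in Sin3Bsg1 without IFNγ too (0.84 ± 0.090, edgeR adjusted p = 7.56e-06), and Ccn5 lower (-0.93 ± 0.091, edgeR adjusted p = 2.72e-06). Ccn3 fell with IFNγ in Sin3Bsg1 by 1.01 on the log2 scale (edgeR adjusted p = 2.84e-08).

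In the SPARC family, Fstl1, a secreted follistatin-like glycoprotein, fell in untreated Sin3Bsg1 from 21.1 ± 2.05 to 8.43 ± 0.95 CPM (-1.33 ± 0.11, edgeR adjusted p = 7.06e-08). It was lower in Sin3Bsg1 by a like amount without IFNγ (-1.86 ± 0.067, edgeR adjusted p = 1.04e-10) and with it (-1.85 ± 0.061, edgeR adjusted p = 3.63e-11). With IFNγ it rose from 64.7 ± 0.32 to 179 ± 6.26 CPM in sgCtrL (1.47 ± 0.060, edgeR adjusted p = 1.52e-11), where Sparc itself differed by -0.09. Of the other fibulins, 4 of 5 tested fell in untreated Sin3Bsg1 and 0 rose. Fbln1 fell from 167 ± 0.86 to 84.8 ± 0.086 CPM (-0.98 ± 0.032, edgeR adjusted p = 1.51e-12) and was also lower without IFNγ (-0.71 ± 0.078, edgeR adjusted p = 9.30e-06), where Fbln2 was higher.

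Of the other thrombospondins and tenascins, 3 of 5 were tested in untreated cells, and Tnxb (tenascin X) and Comp (thrombospondin 5) rose in Sin3Bsg1 while 0 fell. Tnxb rose from 11.1 ± 2.18 to 23.0 ± 1.09 CPM (1.05 ± 0.11, edgeR adjusted p = 1.42e-06), opposite in sign to Tnc. Comp rose from 1.03 ± 0.21 to 2.45 ± 0.56 CPM (edgeR adjusted p = 0.00444), a call that was lost without Sin3Bsg1 replicate 2. With IFNγ Tnxb fell by 1.46 on the log2 scale in sgCtrL (edgeR adjusted p = 4.54e-08). Of 7 hyalectans and link proteins 2 were tested, and Acan (aggrecan) rose in untreated Sin3Bsg1 (0.48 ± 0.056, edgeR adjusted p = 4.91e-06) and fell with IFNγ in sgCtrL (-1.13 ± 0.15, edgeR adjusted p = 3.06e-05), while Hapln4 rose in Sin3Bsg1 without IFNγ (0.35 ± 0.083, edgeR adjusted p = 0.00716). Of 3 hyaluronan synthases, 2 were tested and 0 passed in a genotype contrast. Has3 fell with IFNγ in sgCtrL (-0.92 ± 0.26, edgeR adjusted p = 0.0137), but not past the threshold without sgCtrL replicate 3 of the arm without IFNγ. The 3 fasciclin-domain genes and 4 small integrin-binding glycoproteins of bone were not tested in either experiment, since their counts did not pass the filter.

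Of the receptors, 16 of 18 were tested in untreated cells, where 3 were higher and 10 lower in Sin3Bsg1. Lrp1, an endocytic receptor of thrombospondins, fell from 234 ± 1.68 to 173 ± 0.77 CPM (-0.43 ± 0.026, edgeR adjusted p = 2.32e-09). Itgb3, the β3 subunit of the osteopontin and fibronectin receptor, rose from 61.8 ± 3.04 to 81.9 ± 0.013 CPM (0.41 ± 0.043, edgeR adjusted p = 1.69e-06). Neither was past the threshold without IFNγ in the second experiment (Lrp1 -0.19 ± 0.13, Itgb3 0.074 ± 0.059). Between genotypes with IFNγ, Lrp1 differed by 0.026 ± 0.13 and Itgb3 by 0.33 ± 0.063 (edgeR adjusted p = 0.93 and 0.0018). Itga8, an integrin subunit for tenascin C and fibronectin, was lower in Sin3Bsg1 without IFNγ (11.96 ± 0.32 to 4.76 ± 0.59 CPM, -1.33 ± 0.13, edgeR adjusted p = 2.56e-06) and lower with IFNγ in sgCtrL (-1.61 ± 0.13, edgeR adjusted p = 1.13e-07). Cd44 was higher in Sin3Bsg1 without IFNγ by 0.25 ± 0.050 (edgeR adjusted p = 0.00246).

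All 12 genes of the TGF-β pathway list were tested, and 2 rose and 7 fell in untreated Sin3Bsg1. The largest falls were in Tgfbr3, a co-receptor (48.4 ± 0.46 to 21.7 ± 0.11 CPM, -1.16 ± 0.058, edgeR adjusted p = 2.80e-10), and the ligand Tgfb2 (51.6 ± 0.63 to 26.9 ± 0.21 CPM, -0.94 ± 0.054, edgeR adjusted p = 1.29e-09). Without IFNγ in the second experiment 0 rose and 2 fell, Tgfbr3 (-0.59 ± 0.061, edgeR adjusted p = 4.66e-06) and the receptor Tgfbr1 (-0.49 ± 0.047, edgeR adjusted p = 2.45e-06), while Tgfb2 differed by 0.012 ± 0.086 (edgeR adjusted p = 0.95). With IFNγ Tgfb2 fell by 1.07 on the log2 scale in sgCtrL (edgeR adjusted p = 2.31e-07) and by 1.12 in Sin3Bsg1 (edgeR adjusted p = 1.07e-07), in the same direction as Tgfbi. Between genotypes, both Tgfb2 and Tgfbi (-0.50) were lower in untreated Sin3Bsg1. Without IFNγ in the second experiment, Tgfbi differed by -0.52 where Tgfb2 differed by 0.012. The lists were chosen with earlier results of these data known.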

How the data were processed

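RNA-seq of KPC1199 cells was analysed in 16 libraries. The authors deposited 1 table of gene values per experiment. These deposited values were taken as estimated counts without normalization, since some are not whole and the libraries' sums differ. The submitters' processing notes name fastp, HISAT2, StringTie, DESeq2 and mm39, whereas the paper's methods name HISAT2, mm9 and featureCounts. Versions and the strand setting are not given in the sources used here. The 4 columns of group means in the IFNγ table and 2 in the untreated table were left out. The control columns are named after lacZ. They were matched to sgCtrL by elimination, the remaining columns being those of the Sin3B guide. The 324 features without a gene identifier in the untreated table (0.615 to 0.677% of counts) were left out.

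Counts were rounded and fitted per table with edgeR 4.0.16 in R 4.3.3 (TMM, filterByExpr, quasi-likelihood test, two-sided). The threshold was 0.05 on the Benjamini-Hochberg adjusted p over 14589 and 14913 genes. The fit was run on simulated counts for the genotype contrasts untreated and without IFNγ, with the same variation for every gene. That simulation did not cover a library that stands apart, the IFNγ contrasts or the interaction. The 12 libraries of the IFNγ experiment shared 1 fit with a mean per group. TMM factors ran from 0.957 to 1.04. An interval or error here rests on counting and on 2 or 3 libraries a group, with the spread estimated over the groups of a fit together and shared across genes. TPM used the deposited gene lengths. Alternatives were RLE factors, DESeq2 1.42.0, no filter on low counts, the replicate number as a block, only the groups compared, and leaving out each library. Positions are from GENCODE (GRCm39).

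All 10 genes were named, and from each related list at most 4 genes past the threshold per contrast with at least 1 CPM. For genes with an absolute log2 fold change of 1 or more, the 2 genes of most alike pattern were sought, 1 of which is not reported here. The genes and lists were chosen with earlier results of these data known. Mtx1 and Gm42793 were named after their values were seen, since they overlap Thbs3 and Spp1.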

Additional observations from a re-analysis of the deposited data

Results flagged for a closer look

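3 genes had genotype differences of opposite sign in the experiments without IFNγ, with every Sin3Bsg1 library on one side of the sgCtrL libraries in the untreated experiment and on the other side in the IFNγ experiment. For Thbs2 the log2 fold change was -0.17 untreated and 1.64 without IFNγ. For Fbln2 it was -0.68 and 0.39, and for Spp1 -0.084 and 0.20. The difference between the experiments was not tested, since they were deposited and normalised as separate tables. The share of all genes with such a change of side was not counted, so nothing is read from the 3 genes. The genotypes did not overlap for 63.3% of all genes in the untreated experiment and for 39.2% without IFNγ in the other. The untreated value of Thbs2 rests on 101 to 114 reads per library and was not past the threshold.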

How the results depend on the processing

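Of 920 values of the 10 genes under the alternatives, 884 kept their direction and their side of the threshold, 18 moved past it, 14 no longer passed it and 4 reversed. The reversals were near 0. The IFNγ difference in Sin3Bsg1 became positive for Tnc without Sin3Bsg1 replicate 3 with IFNγ (0.020) or replicate 2 without it (0.0015), and for Vcan without replicate 3 with IFNγ (0.016). So did the genotype difference of Tnc with IFNγ without sgCtrL replicate 2 (0.045). Over all left-out libraries these ranged from -0.11 to 0.020 for Tnc and -0.11 to 0.016 for Vcan, and from -0.16 to 0.045 for the genotype difference of Tnc. Those that moved past it were Thbs3 and Fn1 (genotype without IFNγ), Sparc and Vcan (IFNγ in sgCtrL) and Fbln2 (IFNγ in Sin3Bsg1). Of 277 counts 261 stayed within 1.5 times. The interaction over all genes had 17 calls, 32 with DESeq2, 110 without a filter and 1 to 33 when a library was left out; the 33 came without sgCtrL replicate 1 with IFNγ, the library that stood apart, and the 1 without Sin3Bsg1 replicate 2 or sgCtrL replicate 3 without IFNγ. With only the 2 groups compared, all-gene calls were 3996 (2568 in the shared fit) without IFNγ and 1500 (2464) with it. The ratio of Spp1 to Fn1 in sgCtrL without IFNγ was 8.23 in TPM and 1.40 in CPM, and in untreated sgCtrL Fn1 stood above Spp1 in CPM (3400.3 against 2766). The causes were not tested, apart from gene length for that ratio.

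Replicate numbers were not taken to pair the samples. Deviations of same-numbered libraries correlated at -0.021 untreated, and at -0.197 to 0.232 in the other experiment, where 5 of 18 pairs were above 0.1. The values 0.232, 0.202 and 0.192 were all between libraries numbered 2, as was -0.197, and a pair of unlike numbers reached 0.242. With 2 libraries a group the untreated deviations mirror each other. Whether some libraries were paired was thus not settled. With the replicate number as a block, 8 of the 10 genes were called untreated and 8 without IFNγ, as without the block, and all-gene calls were 4675 and 2511.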
